A study of Mus musculus with 44 samples.

Results

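Fatty acid uptake and oxidation was described here by 36 genes in the gastric corpus mucosa of mice that lack the beta subunit of the proton pump and of wild type (WT) mice, each treated with the gastrin receptor antagonist netazepide (NTZ) or with its vehicle. The 36 genes were chosen by name for their roles, from lipoprotein lipase at the capillary wall to the proteins that pass electrons from acyl-CoA dehydrogenases to ubiquinone, and the rule used no measured value, although the set was drawn up with earlier results of these data known. All 36 were found among the 31484 genes listed, and all 36 passed the filter on low counts, which 14901 genes passed in all. The knockout (KO) mice carry a disruption of exon 1 of Atp4b in every tissue, have parietal cells that cannot secrete acid and were on a BALB/c background, as were the WT mice. RNA was taken at 13 months of age, after subcutaneous injections of NTZ, named YF476 or yf in the labels, in polyethylene glycol 300 (PEG) or of PEG alone. The groups were WT/PEG with 11 libraries, WT/NTZ with 9, KO/PEG with 13 and KO/NTZ with 11, 44 in all. The labels gave more KO/PEG libraries than the mice that the study counted in that group, named a pair of WT/PEG libraries by the same animal (WT_172_WT_PEG_1 and WT_172_WT_PEG_2), and used one animal number in both KO groups (KO_110_KO_PEG and KO_110_KO_YF). Where libraries share a mouse, p-values measure in part the technical spread between libraries.

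Mitochondria burn fatty acids in a fixed order. Lipoprotein lipase frees them from circulating triglyceride, membrane and cytosolic carriers bring them in, ligases activate them to acyl-CoA, and carnitine carries the acyl group across the inner mitochondrial membrane. A spiral of dehydrogenation, hydration, a further dehydrogenation and thiolysis then releases acetyl-CoA, and electron transfer flavoprotein hands the electrons on. Parietal cells, the acid-secreting cells of the corpus, are among the cells of the body richest in mitochondria, and PPAR alpha, PGC-1 alpha and the estrogen-related receptors are textbook activators of the genes of this pathway.

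The stretches before the starts of 3 members, and the stretch that a pair of members share, are shown because their genes gave the contrasts described further on: Cd36 and Acadm were lower in KO mice, Etfb was higher, and Hadha and Hadhb, which encode both subunits of 1 enzyme, are transcribed away from each other from a common 85-base interval. The first 3 sequences are the 250 bases before the RefSeq start on the gene's strand, the build is GRCm38.p6, none of the bases lies in an exon of the GENCODE annotation, and capitals mark CpG dinucleotides. The Cd36 stretch lies inside the longest annotated span of the gene, in an intron of transcripts that begin further upstream, while the other stretches lie before their genes.
Cd36, chr5:17835897-17836146, minus strand: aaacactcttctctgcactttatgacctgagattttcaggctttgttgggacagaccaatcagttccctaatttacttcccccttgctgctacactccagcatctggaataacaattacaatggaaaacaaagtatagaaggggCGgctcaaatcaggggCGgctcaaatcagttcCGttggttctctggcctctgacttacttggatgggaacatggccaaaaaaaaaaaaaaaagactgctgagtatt
Acadm, chr3:153944644-153944893, minus strand: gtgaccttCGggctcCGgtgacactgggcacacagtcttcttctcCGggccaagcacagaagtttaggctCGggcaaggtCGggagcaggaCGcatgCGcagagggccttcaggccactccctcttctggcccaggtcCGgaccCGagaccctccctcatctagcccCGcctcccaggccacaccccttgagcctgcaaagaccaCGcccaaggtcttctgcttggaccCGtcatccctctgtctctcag
Etfb, chr7:43443822-43444071, plus strand: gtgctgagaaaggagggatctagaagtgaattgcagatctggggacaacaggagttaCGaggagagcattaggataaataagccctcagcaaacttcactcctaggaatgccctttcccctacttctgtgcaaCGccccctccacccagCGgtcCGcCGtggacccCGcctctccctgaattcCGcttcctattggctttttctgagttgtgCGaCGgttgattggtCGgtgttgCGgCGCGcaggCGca
Hadha and Hadhb, chr5:30155163-30155247, plus strand: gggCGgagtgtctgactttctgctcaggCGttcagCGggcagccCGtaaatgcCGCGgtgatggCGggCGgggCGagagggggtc
The Cd36 stretch held 3 CpG and was 43.2% G or C, whereas those of Acadm and Etfb held 12 and 14, and the interval between Hadha and Hadhb held 9 in its 85 bases. RefSeq windows of 300 bases, 250 before and 50 after a start, were at hand for 29 of the 36 members, 34 windows in all. Their median was 16 CpG, against 7 over all 32851 windows, 20 in the 18 windows of members lower in KO/PEG and 15 in the 14 windows of members higher. The estrogen-related receptor element TNAAGGTCA stood in 0 of the 34 windows on either strand, and in 421 (1.28%) of all windows. The direct repeat that PPAR dimers bind, a pair of AGGTCA copies with 1 base between them, stood in 0 of the 34 on either strand and in 13 (0.0396%) of all windows. The AGGTCA core is common to both motifs, so their matches may overlap. Exact matches were rare in windows of this length, and 0 matches says only that these letters were not there.

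Libraries held 6065084 to 21945124 estimated counts. Levels are given as CPM, which are counts set relative to TMM (trimmed mean of M-values) library sizes. Atp4b, the disrupted gene, was at 3924 ± 713 CPM (SD, n = 11) in WT/PEG and 6.84 ± 3.87 CPM (n = 13) in KO/PEG, a log2 fold change of −9.17 ± 0.38 (standard error), and no KO library reached the WT range in either treatment. Of 11 parietal cell markers, all were detected, and their summed level was 8932 to 12930 CPM in WT/PEG and 3143 to 9195 in KO/PEG. RNA of this marker list was thus present in every library of both groups. Whether each marker is specific to parietal cells was not tested, so the sum alone does not show that these cells were present. Under their names in the labels, in which YF stands for NTZ, 4 libraries stood apart: WT_120_WT_PEG and WT_117_WT_YF by adipocyte markers (470.1 and 739.9 CPM in sum, against group medians of 78.6 and 74.0), WT_117_WT_YF also by squamous markers, WT_118_WT_YF by the lowest parietal (5655 CPM) and chief cell sums, and KO_46_KO_PEG by the highest mitochondrially encoded share (14.4%, against a KO/PEG median of 4.83%) and by adipocyte markers (358 CPM, against a median of 21.4). Without these 4 libraries, 19 members were lower and 12 higher in KO/PEG than in WT/PEG, as with them. Transcript length also separated the genotypes. Each library's log2 CPM, taken relative to each gene's mean over all libraries, was regressed on log2 transcript length. The sign of this slope is therefore relative to the other libraries, not an absolute dependence on length. It was 0.08 to 0.35 in the 20 WT libraries. In the 24 KO libraries it was −0.37 to 0.17, and 1 of them, KO_46_KO_PEG, reached the lowest WT value. Long transcripts were thus counted less in KO libraries than in WT libraries, and this slope and the genotype can hardly be told apart.

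In the WT/PEG corpus members ranged from under 1 to 349 TPM when counts were set per transcript length (TPM). Fabp3, a cytosolic fatty acid carrier of oxidative tissues, had the highest level at 349 ± 36.7 TPM (SD, n = 11), followed by Etfa at 250.5 ± 26.9 TPM, Fabp5 at 249.3 ± 83.6 TPM and Ech1 at 242 ± 22.4 TPM, and the last 3 did not differ beyond their spread. The enzymes of the spiral lay between 50.9 TPM (Acads) and 200.4 TPM (Hadhb). The activating ligases Acsl1 and Acsl5 and the carnitine palmitoyltransferase Cpt1a lay within 1 SD of each other at 50.2, 49.2 and 49.0 TPM. The carnitine palmitoyltransferase of muscle, Cpt1b, was at 0.909 ± 0.609 TPM, and of the regulators Ppara was at 1.68 ± 0.354 TPM, Pdk4 at 5.28 ± 1.67 TPM and Pparg at 30.6 ± 6.61 TPM. Acot1 had the lowest level, 0.607 ± 0.323 TPM.

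Between KO/PEG and WT/PEG, 31 of the 36 members (86.1%) passed an adjusted p of 0.05 in edgeR's quasi-likelihood test, 19 of them lower (52.8%) and 12 higher (33.3%) in KO/PEG. Over all genes tested 74.7% passed, 37.2% lower and 37.5% higher, so the genotypes differed in most of what was measured and the share of members called was not far from that background. The calls of higher members fell from 12 to 1 when the length slope of each library entered the fit, as given further on. The median log2 difference of the members was −0.30, and that of all genes was 0.00. In 12 of the 36 members every KO/PEG library lay below every WT/PEG library, as in 8.88% of all genes, and in 0 members did every KO/PEG library lie above, as in 5.46% of all genes. These 12 were Lpl, Cd36, Fabp3, Slc27a2, Acsl1, Cpt1a, Crat, Acadm, Etfa, Etfdh, Ppara and Pdk4, and 9 of the 36 members differed by −1 or less on the log2 scale, as did 13.2% of all genes, while 1, Acot1, differed by 1 or more, as did 14.8% of all genes. In a tissue homogenate, fewer cells of a type and less RNA per cell cannot be told apart, and 10 of the 11 parietal markers were lower in the same comparison, with a median log2 difference of −1.24.

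**Figure D1:**
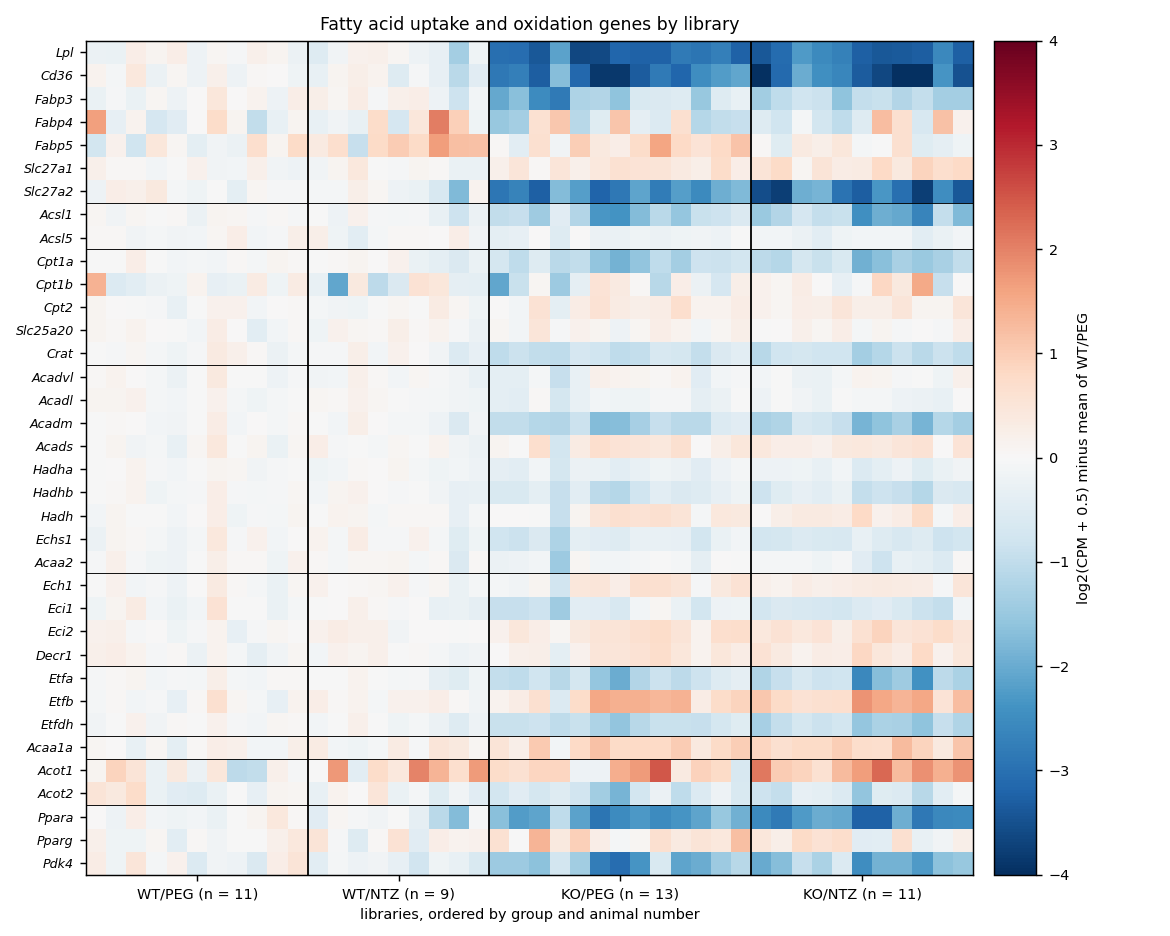
Each cell is 1 member (rows, ordered by role from uptake to regulators) in 1 library (columns, by group), coloured by log2(CPM + 0.5) minus the WT/PEG mean. Lpl, Cd36, Slc27a2 and Ppara are blue across both KO groups, Etfb and Acaa1a are mostly red there, and no treatment border within a genotype stands out.

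Of the proteins that bring fatty acids in, 4 of 7 were lower and 2 higher, with a median log2 difference of −1.15. Lpl, the lipase that frees fatty acids from lipoproteins (chr8:68880491-68907448, plus strand, GRCm38), ranged from 384 to 554 CPM with a median of 488 in WT/PEG, and from 36.3 to 105 CPM with a median of 51.01 in KO/PEG. The groups lay far apart, at a log2 fold change of −3.06 ± 0.16 (8.37-fold lower, adjusted p = 1.4e-19). Cd36, the membrane receptor that takes up long-chain fatty acids, ranged from 173.3 to 277 CPM with a median of 209 in WT/PEG and from 13.6 to 63.3 CPM with a median of 27.9 in KO/PEG. It was 6.88-fold lower (log2 −2.78 ± 0.23, adjusted p = 1.61e-13), again without overlap. Slc27a2, an acyl-CoA synthetase that also acts in transport, was scarce in WT/PEG, with 4.66 to 8.53 CPM, and fell to 0.212 to 1.55 CPM in KO/PEG, a log2 difference of −2.98 ± 0.34 that rested on few reads a library. Fabp3 ranged from 212 to 350.2 CPM in WT/PEG and from 36.05 to 209.8 CPM in KO/PEG, where the spread was wide (117.4 ± 57.8 CPM, SD, n = 13), and its log2 difference was −1.15 ± 0.19 (adjusted p = 1.44e-06). In KO/PEG the highest values of Lpl, Cd36 and Slc27a2 all came from KO_46_KO_PEG. That library had the most adipocyte markers, the highest mitochondrially encoded share and the highest length slope of the group. Without the 4 libraries that stood apart the log2 differences of Lpl, Cd36 and Slc27a2 were −3.20, −2.91 and −3.12.

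The remaining carriers did not follow. Slc27a1, a fatty acid transport protein, was 1.32-fold higher in KO/PEG (log2 0.41 ± 0.09, adjusted p = 8.39e-05), with 10 of 13 libraries above the whole WT/PEG range of 17.4 to 23.3 CPM. Fabp5, the epidermal-type carrier, was 1.49-fold higher (log2 0.57 ± 0.21, adjusted p = 0.0134) with wide overlap, 123 to 365 CPM in WT/PEG and 159 to 628 CPM in KO/PEG. Fabp4, the carrier of adipocytes and capillary endothelium, did not pass: it ranged from 30.4 to 190 CPM in WT/PEG and from 20.8 to 129.5 CPM in KO/PEG, at a log2 difference of −0.29 with a 95% interval of −0.97 to 0.39. The libraries with the most Fabp4 in each WT group, WT_120_WT_PEG and WT_117_WT_YF, were also those with the most adipocyte markers in those groups. In the KO groups they were not the same: Fabp4 was highest in KO_109_KO_PEG and KO_30_KO_YF, and adipocyte markers were highest in KO_46_KO_PEG (358 CPM in sum) and KO_51_KO_YF (333 CPM). The part of adipose tissue in Fabp4 was not tested.

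**Figure D2:**
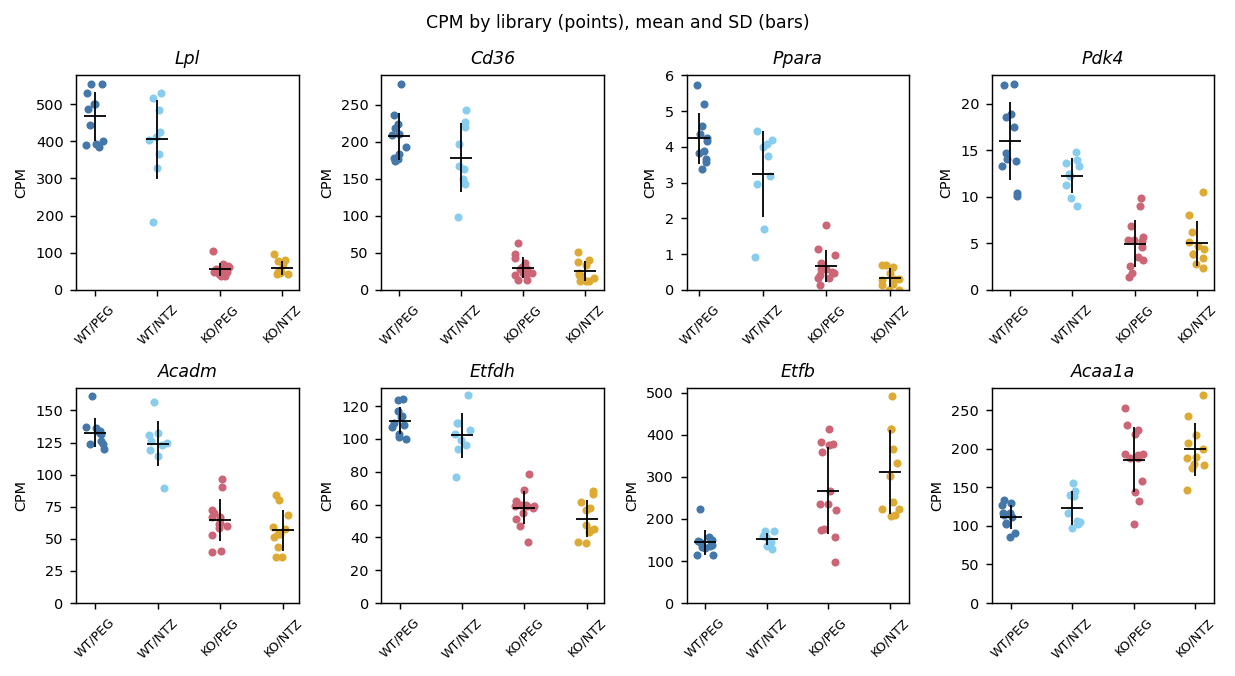
Points are libraries, black bars the mean and SD, and every vertical axis starts at 0 CPM. In Lpl, Cd36, Ppara, Pdk4, Acadm and Etfdh the KO/PEG points lie wholly below the WT/PEG points. Etfb and Acaa1a are higher in KO groups, with overlap between genotypes under PEG in both and under NTZ in Acaa1a.

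Both activating ligases were lower, by very different amounts. Acsl1, the long-chain acyl-CoA synthetase of oxidative tissues, ranged from 143.3 to 181.5 CPM in WT/PEG and from 31.8 to 122 CPM in KO/PEG (log2 −1.16 ± 0.19, adjusted p = 9.09e-07). Acsl5, a synthetase of mitochondria and endoplasmic reticulum, differed by −0.20 ± 0.07 (adjusted p = 0.00844), its groups overlapped, and the call was lost with only animals numbered 100 or above (−0.15, adjusted p = 0.0614). In the carnitine shuttle 2 of 5 members were lower and 1 higher. Cpt1a, the rate-limiting carnitine palmitoyltransferase of the outer membrane, ranged from 174 to 224 CPM in WT/PEG and from 50.9 to 132 CPM in KO/PEG, 2.07-fold lower (log2 −1.05 ± 0.13, adjusted p = 2.63e-09). Crat, carnitine acetyltransferase, was also lower without overlap, 81.2 to 123 CPM against 46.8 to 71.0 CPM (log2 −0.82 ± 0.08). Cpt2, which rebuilds acyl-CoA inside the inner membrane, was 1.20-fold higher (log2 0.26 ± 0.09, adjusted p = 0.00561). Slc25a20, the carnitine-acylcarnitine translocase, did not pass at 0.09, with a 95% interval of −0.05 to 0.23, and Cpt1b, at 1.78 ± 1.14 CPM in WT/PEG, did not pass at a depth of few reads.

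Within the spiral 5 of 9 members were lower and 2 higher, at a median log2 difference of −0.21, and the medium-chain acyl-CoA dehydrogenase had the largest difference. Acadm ranged from 120.2 to 161 CPM with a median of 132 in WT/PEG and from 39.6 to 96.2 CPM with a median of 62.3 in KO/PEG, 2.06-fold lower (log2 −1.04 ± 0.12, adjusted p = 1.31e-09), and no libraries overlapped. The other dehydrogenases of graded chain length had smaller differences: the long-chain Acadl was at −0.21 ± 0.07 on the log2 scale, a call lost with only animals numbered 100 or above (−0.12, adjusted p = 0.0904), the very-long-chain Acadvl did not pass (−0.14, 95% interval −0.32 to 0.03), and the short-chain Acads was higher (0.33 ± 0.10, adjusted p = 0.00402). The subunits of the trifunctional protein, Hadha and Hadhb, whose shared interval is printed above, were both lower, at −0.30 ± 0.06 and −0.59 ± 0.10, and the difference between them was not tested. With the length slope as a covariate Hadha was at −0.36 (adjusted p = 0.00964) and the call of Hadhb was lost (−0.24, adjusted p = 0.289). Echs1, the short-chain enoyl-CoA hydratase, was lower (−0.52 ± 0.09), and 12 of 13 KO/PEG libraries lay below all WT/PEG libraries in Hadhb and in Echs1. Hadh, the short-chain hydroxyacyl-CoA dehydrogenase, was called higher at 0.26 ± 0.11 (adjusted p = 0.0365), a call that was lost with limma-voom (adjusted p = 0.0813), with only both groups in the fit, with both libraries of animal WT_172 summed and without the libraries KO_110_KO_PEG and KO_110_KO_YF. The thiolase Acaa2 did not pass (−0.18, 95% interval −0.39 to 0.03).

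The auxiliary enzymes that prepare unsaturated chains for the spiral went both ways. Eci1, the mitochondrial enoyl-CoA isomerase, was lower (log2 −0.52 ± 0.12, adjusted p = 0.000183), while Eci2 (0.46 ± 0.08), the dienoyl-CoA reductase Decr1 (0.31 ± 0.09) and Ech1 (0.27 ± 0.10) were higher. The electron carriers after the dehydrogenases split most clearly. Etfa, the alpha subunit of electron transfer flavoprotein, ranged from 229 to 291 CPM in WT/PEG and from 62.9 to 195.0 CPM in KO/PEG (log2 −0.95 ± 0.15, adjusted p = 9.65e-07). Etfb, its partner in the same heterodimer, ranged from 114 to 224 CPM with a median of 139 in WT/PEG and from 97.5 to 413 CPM with a median of 236 in KO/PEG (log2 0.89 ± 0.17, adjusted p = 1.93e-05). The dehydrogenase that accepts their electrons, Etfdh, was lower without overlap, at 111.1 ± 8.29 CPM in WT/PEG and 58.02 ± 9.97 CPM in KO/PEG, where it ranged up to 78.8 CPM (log2 −0.94 ± 0.10, adjusted p = 4.3e-11). With the length slope as a covariate Etfb turned to −0.84. The lowest Etfb value of KO/PEG came from KO_46_KO_PEG, and 8 of 13 libraries lay above all WT/PEG libraries.

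Outside this route, Acaa1a, the peroxisomal thiolase, was 1.66-fold higher (log2 0.73 ± 0.11, adjusted p = 3.16e-07), and 11 of 13 KO/PEG libraries lay above the WT/PEG maximum of 133 CPM. Acaa1a has a near-identical copy, Acaa1b, which was 2.25-fold higher in the same comparison, so the split of reads between them is uncertain. The same holds for Acot1 and Acot2, adjacent thioesterase genes of nearly the same sequence: Acot1 was 2.1-fold higher at 1.24 ± 0.663 against 2.69 ± 2.12 CPM, and Acot2 1.82-fold lower at 4.70 ± 1.56 against 2.59 ± 0.826 CPM. The call of Acot1 was lost with limma-voom (adjusted p = 0.0712).

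Of the regulators, Ppara, the fatty acid receptor that drives this programme in liver and heart, ranged from 3.39 to 5.74 CPM with a median of 4.17 in WT/PEG and from 0.122 to 1.82 CPM with a median of 0.573 in KO/PEG. It was 6.24-fold lower (log2 −2.64 ± 0.29, adjusted p = 3.36e-10) on few reads, and the groups did not overlap. Pdk4, the kinase that turns pyruvate dehydrogenase off when fat is burned, ranged from 10.1 to 22.1 CPM in WT/PEG and from 1.43 to 9.87 CPM in KO/PEG (3.23-fold lower, adjusted p = 1.52e-08). Pparg, the receptor of adipocyte and macrophage programmes, was 1.49-fold higher (log2 0.57 ± 0.16, adjusted p = 0.00141), with 6 of 13 libraries above the WT/PEG maximum of 65.0 CPM.

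**Figure D3:**
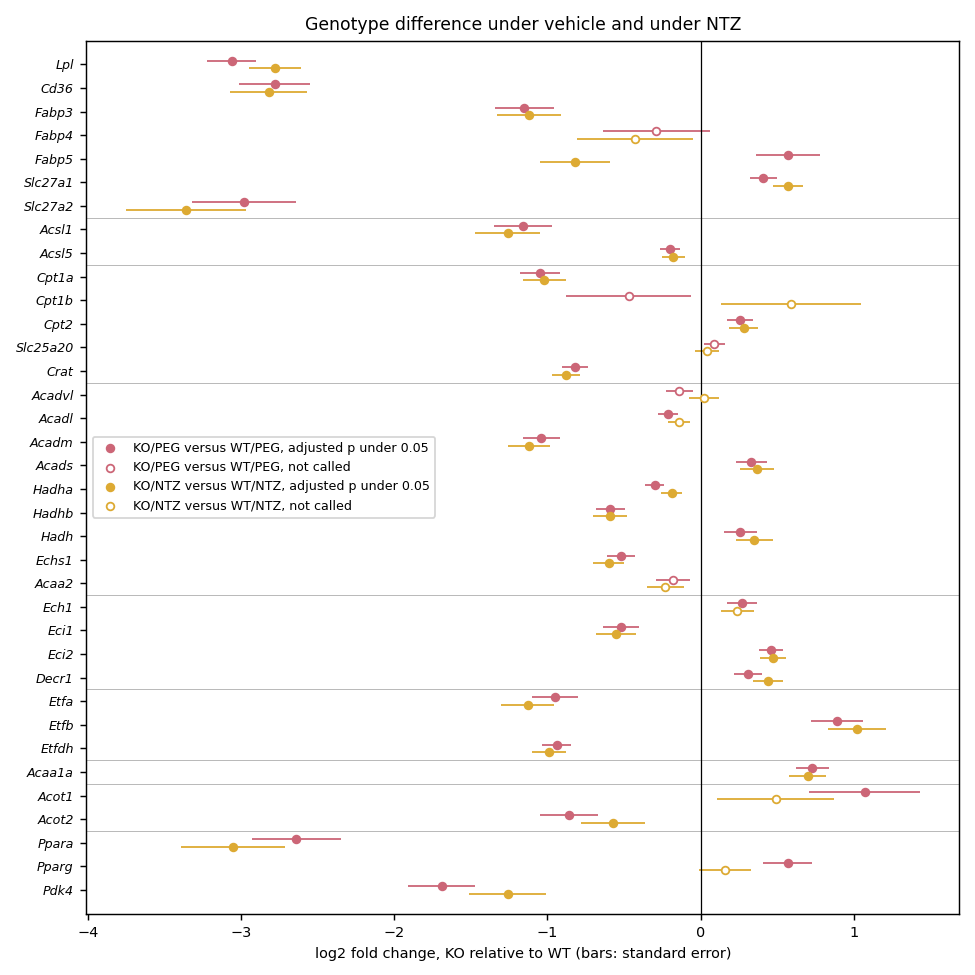
Points are log2 fold changes of KO against WT for the 36 members by role, bars the standard error, red under PEG and yellow under NTZ, filled where adjusted p was under 0.05. The largest falls are in Lpl, Cd36, Slc27a2 and Ppara under both treatments, and Fabp5 has opposite signs.

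The median transcript length was 1803 bases for the higher members, 2318 bases for the lower members and 2645 bases for all genes tested, and these medians were not tested. When the length slope of each library was added to the fit as a covariate, 18 members stayed or became lower and 1, Pparg (log2 1.03, adjusted p = 0.00592), was higher. Lpl (−2.12), Cd36 (−1.31), Slc27a2 (−1.88), Fabp3 (−2.02), Crat (−0.75) and Etfdh (−0.44) still passed. Etfb passed in the opposite direction (adjusted p = 9.18e-06), and Acads, Hadh and Ech1 likewise turned lower and passed, at −0.48, −0.55 and −0.47. Acadm (−0.46, adjusted p = 0.0904), Cpt1a (−0.16), Acsl1 (0.19), Etfa (−0.18), Pdk4 (−0.45) and Ppara (−0.82, adjusted p = 0.137) no longer passed, and Acaa1a was at −0.02. With this covariate 4881 genes passed over the whole table in place of 11125, and because slope and genotype nearly coincide, neither fit separates them.

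**Figure D4:**
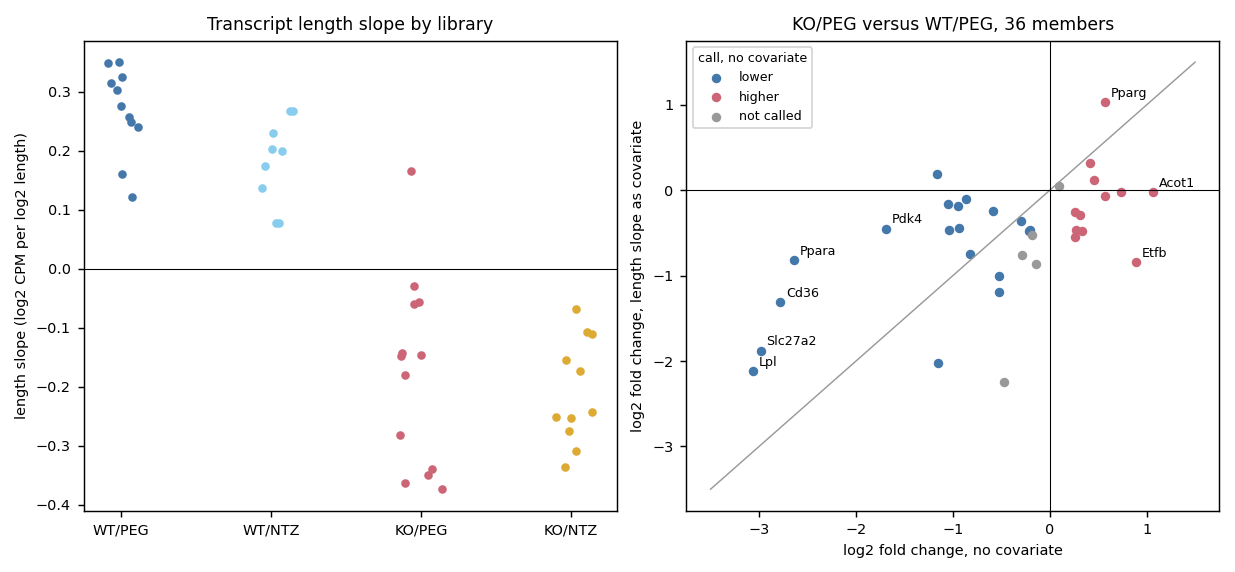
Left, the transcript length slope of each library (points) by group, relative to the mean of all libraries. Right, the log2 fold change of each member in KO/PEG against WT/PEG without (horizontal) and with (vertical) the slope as a covariate, coloured by its call without it, the grey line marking equality: WT slopes are positive, all KO slopes but 1 are negative, and most members called higher come to lie at or below 0 on the vertical axis.

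Single transcripts of the members showed that some gene sums joined opposite movements. Of 30328 transcripts tested in KO/PEG against WT/PEG, 83 belonged to the 36 members, of which 39 were lower and 18 higher, where 25.7% of all transcripts tested were lower and 27.6% higher, and 6 members (Fabp5, Cpt2, Crat, Acadvl, Acads and Hadhb) had transcripts called in both directions. Acadvl did not pass as a gene, yet its main coding transcript ENSMUST00000102574 went from 177 ± 25.6 to 112 ± 20.3 CPM while the retained-intron transcript ENSMUST00000134516, of 538 bases, went from 0.658 ± 0.373 to 27.2 ± 25.8 CPM. The protein-coding share of Acadvl counts was 98.9 ± 0.583% in WT/PEG and 84.8 ± 11.7% in KO/PEG, and with protein-coding transcripts alone Acadvl was lower by 0.32 on the log2 scale (adjusted p = 0.000363). In Crat this share was 92.8 ± 5.27% against 50.4 ± 30.2%, so that the coding RNA of Crat differed by more than the gene sum. In Cpt2 the full transcript ENSMUST00000030345 did not pass (−0.23 ± 0.17), and a coding transcript of 1015 bases, ENSMUST00000106720, rose from 4.98 ± 2.35 to 30.9 ± 20.9 CPM. Hadha counts were assigned mostly to a transcript annotated as non-coding in both genotypes. With protein-coding transcripts alone the Hadha call was lost (−0.15, adjusted p = 0.235). The calls of Acsl5 (−0.13) and Acadl (−0.14) were lost in the same fit. Acsl5 has only 1 listed transcript, a coding one, and nearly all Acadl counts were coding in every group. Leaving out non-coding transcripts thus hardly changed the counts of Acsl5 and Acadl. Why their calls were lost was not tested. The 2020-base coding transcript ENSMUST00000018718 of Acadvl also rose (3.25 ± 6.23 to 25.2 CPM on average, adjusted p = 0.0108). The 634-base retained-intron transcript ENSMUST00000175651 of Cpt2 fell (3.77 ± 2.11 CPM to 0.227 CPM on average). Whether transcript length orders these movements was not tested.

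Genes of the same pathway that are no members were counted from lists. Of 14 other uptake, binding and activation genes tested, 6 were lower and 7 higher in KO/PEG, led by Acsl6 (11.7-fold lower) and the acyl-CoA binding protein Dbi (3.57-fold higher). Of 8 genes of carnitine supply and malonyl-CoA control, 5 were lower and 1 higher, with Acaca, an enzyme that makes malonyl-CoA, 1.56-fold lower. Of 17 other mitochondrial acyl-CoA enzymes, 9 were lower and 3 higher, among them Acadsb (2.84-fold lower) and Ivd (2.42-fold lower), dehydrogenases of branched chains. Of 17 peroxisomal oxidation genes, 6 were lower, including catalase (2.55-fold), and 4 higher. In ketone body metabolism 2 of 5 were lower and 1 higher: Oxct1, needed to burn ketone bodies, was 4.17-fold lower, at 986 ± 148 CPM in WT/PEG and 237 ± 83.1 CPM in KO/PEG. Lipid droplet and lipolysis genes were 5 lower and 5 higher of 14, and those of fatty acid synthesis and desaturation 2 lower and 6 higher of 13. Of 18 regulators, 11 were lower and 5 higher, with a median log2 difference of −0.51: the coactivators Ppargc1a (5.58-fold) and Ppargc1b (2.49-fold) and the receptor Esrrg (7.33-fold) were all lower.

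Mitochondrial genes outside fatty acid oxidation did not share one direction. Of 13 citric acid cycle genes, 11 were lower and 1 higher (median log2 −0.40), of 30 nuclear subunits of oxidative phosphorylation, 6 were lower and 16 higher (median 0.28), and of 14 glycolysis genes, 1 was lower and 9 higher (median 0.44), led by Hk2 (4.05-fold higher). No test of the members against these lists was made. The counts of these lists, and of the other pathway and marker lists, come from the fit without the length slope. Over all genes that covariate moved those passing from 11125 to 4881. How far it would move the lists is not given here, so their directions may in part follow transcript length.

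Cell type markers moved strongly with genotype beside the members. Of 6 chief cell markers tested, 4 were lower and 2 higher, the 7 markers of mucous neck cells and spasmolytic polypeptide-expressing metaplasia (SPEM) were all higher (median log2 3.87), 3 of 4 surface mucous markers were lower and 4 of 5 enterochromaffin-like (ECL) cell markers were higher. Adipocyte markers, which bear on Lpl, Cd36, Fabp4 and Pparg, were 3 lower and 0 higher of 9. Their summed levels were 23.9 to 470.1 CPM in WT/PEG (median 78.6) and 13.8 to 358 CPM in KO/PEG (median 21.4). Endothelial markers, whose cells carry Cd36 and the lipase anchor Gpihbp1, were 6 higher and 2 lower of 8. They summed to 188 to 326 CPM in WT/PEG and 238 to 535 CPM in KO/PEG. Gpihbp1 (2.43-fold) and Egfl7 (1.85-fold) were among the higher markers, and Kdr (1.94-fold) among the lower. Skeletal muscle markers were near 0 (7.34 to 17.98 CPM in WT/PEG), 6 of 6 smooth muscle markers were lower, 5 of 8 macrophage markers and 3 of 4 liver markers were higher, and 0 of 8 squamous forestomach markers passed. The liver markers called were scarce in KO/PEG (Apoa2 1.71, Apoc3 0.853 and Alb 4.86 CPM). The summed liver level had a median of 114.5 CPM in KO/PEG and 145.0 CPM in WT/PEG. The part of each cell type in the members' values was not tested.

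The genotype comparison was repeated in mice given NTZ, with no library in common. In KO/NTZ against WT/NTZ, 27 of 36 members (75.0%) passed, 19 lower and 8 higher, where 72.4% of all genes passed, 36.8% lower and 35.6% higher. All 27 had also passed under PEG, where they made up 87.1% of the 31, and 18 were lower in both, 8 higher in both and 1, Fabp5, opposite. Lpl (log2 −2.78 ± 0.17), Cd36 (−2.82 ± 0.25), Slc27a2 (−3.36 ± 0.39) and Ppara (−3.05 ± 0.34) were again the lowest, and Acadm (−1.12 ± 0.14), Etfa (−1.13 ± 0.17) and Etfdh (−0.99 ± 0.11) lay near their values under PEG. In Lpl, WT/NTZ ranged from 182 to 529 CPM and KO/NTZ from 43.3 to 95.4 CPM. Acadl, Ech1, Acot1 and Pparg passed under PEG only; the difference between treatments in these 4 did not pass (adjusted p of 0.522 to 0.955). Etfb was higher by 1.02 ± 0.19, 206 to 492 CPM in KO/NTZ against 153 ± 14.6 CPM (SD, n = 9) in WT/NTZ, and here every KO/NTZ library lay above every WT/NTZ library. With the length slope as a covariate, members higher fell from 8 to 1 in this comparison too, and Etfb was at −0.47 (adjusted p = 0.00699).

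In KO/NTZ against KO/PEG 0 of 36 members passed in edgeR, where 5.56% of all genes passed (2.6% lower and 2.97% higher), 2 members had an unadjusted p under 0.05, DESeq2 called 1 (Fabp5, adjusted p = 0.0447) and limma-voom 0. For Lpl the difference was 0.08 with a 95% interval of −0.22 to 0.38, for Acadm −0.18 (−0.42 to 0.06), for Cpt1a −0.10 (−0.35 to 0.15) and for Etfb 0.22 (−0.12 to 0.55), and the difference that would bring KO/PEG to the WT/PEG mean lay outside each of these intervals. For Fabp5, at −0.60 (95% interval −1.01 to −0.18), it lay inside: the mean was 334 ± 125 CPM in KO/PEG, 221.1 ± 59.0 CPM in KO/NTZ and 224.5 ± 79.1 CPM in WT/PEG. Not every member is set out in this way, and Fabp5 need not be the only one. The mean of Pparg was 72.6 ± 24.2 CPM in KO/PEG, 58.3 ± 17.8 CPM in KO/NTZ and 48.8 ± 8.03 CPM in WT/PEG. Scarce members had wide intervals, Slc27a2 at −0.62 (−1.36 to 0.12) and Cpt1b at 0.68 (−0.13 to 1.48). Ppara was at −0.80 ± 0.33 (adjusted p = 0.128), from 0.658 ± 0.443 CPM in KO/PEG to 0.339 ± 0.259 CPM in KO/NTZ. In the same comparison all 5 ECL cell markers were lower, led by Hdc (3.91-fold lower), and 3 of 11 parietal markers were lower. Of the other pathway genes named by the lists, Gpihbp1 (−0.72) and Acad9 (−0.33) were lower and Me1 (0.54) and Ppargc1b (0.57) higher.

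In WT mice 0 of 36 members passed for WT/NTZ against WT/PEG in edgeR, where 1.03% of all genes (154) passed, nearly all of them higher (lower 0.00671%), 2 had an unadjusted p under 0.05, DESeq2 called 1 (Fabp5, adjusted p = 0.0324) and limma-voom 0. Fabp5 was at 0.80 ± 0.23 (adjusted p = 0.0822) and Acot1 at 1.26 ± 0.39 (adjusted p = 0.131), and the other members lay between −0.39 and 0.36.

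Fabp5 was the 1 member whose response to NTZ differed between genotypes. The difference of its NTZ effects, KO minus WT, was −1.40 ± 0.31 on the log2 scale (adjusted p = 0.0168), where 0.96% of all genes passed (0.718% lower and 0.242% higher). Fabp5 had a median of 226 CPM in WT/PEG (123 to 365), 364 CPM in WT/NTZ (113 to 675), 334 CPM in KO/PEG (159 to 628) and 209 CPM in KO/NTZ (151 to 330), and all groups overlapped. The forestomach borders the corpus, and its squamous epithelium is a known site of Fabp5. RNA of squamous markers was unequal between libraries. The 8 squamous markers summed to 1.20 to 575 CPM in WT/PEG, 1.53 to 4530 CPM in WT/NTZ, 2.37 to 803 CPM in KO/PEG and 21.3 to 798 CPM in KO/NTZ. WT_117_WT_YF had both the most Fabp5 (675 CPM) and the most squamous RNA (4530 CPM) of its group, and WT_93_WT_YF had the least of both (113 and 1.53 CPM). WT_99_WT_YF had 426 CPM of Fabp5 beside 1.67 CPM of squamous markers, and the KO/PEG library with the most Fabp5, KO_111_KO_PEG, had 628 CPM of Fabp5 beside 13.4 CPM. The call was lost without the 4 libraries that stood apart (−1.17, adjusted p = 0.0685) and with limma-voom (−1.31, adjusted p = 0.0656), and the part of forestomach tissue in Fabp5 was not tested.

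**Figure D5:**
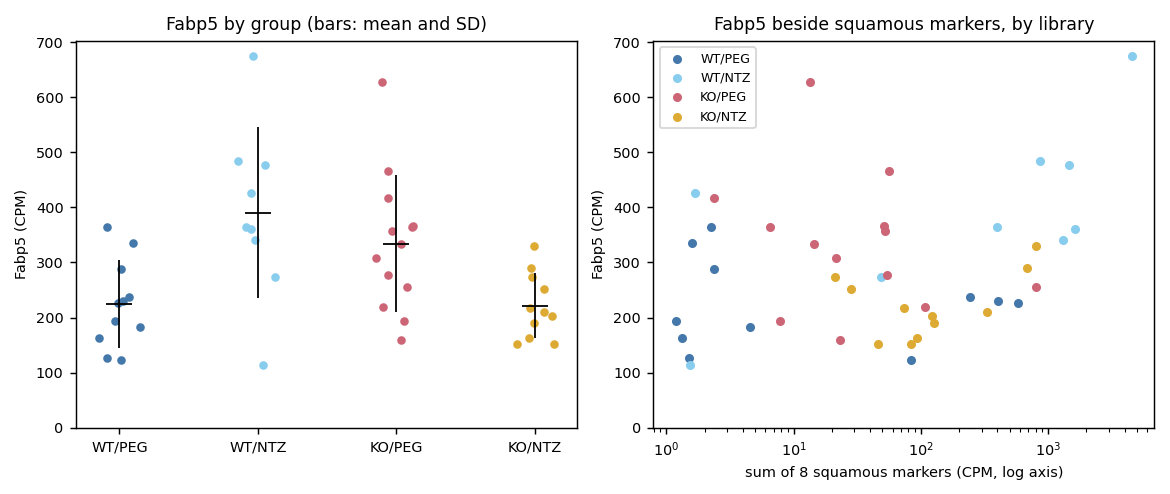
Left, Fabp5 in CPM by group (points are libraries, bars the mean and SD). Right, Fabp5 against the sum of 8 squamous markers on a log axis: the WT/NTZ library with 4530 CPM of squamous markers has 675 CPM of Fabp5, while KO/PEG libraries with under 100 CPM of squamous markers span 159 to 628 CPM.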

How the data were processed

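Gastric corpus RNA of 44 mouse libraries was sequenced as 75-base single reads from TruSeq Stranded mRNA libraries, and the authors quantified GRCm38 transcripts with kallisto 0.42.4. The deposited values are estimated counts per transcript, not normalised; they were summed per gene by GENCODE vM21 names and rounded to whole numbers. Of 94080 transcripts, 1708 had no gene there and were left out (0.329 to 1.3% of a library's counts). Groups came from the labels. Genes were filtered with edgeR 4.0.16 (filterByExpr, minimum count 10, minimum total 15), scaled by TMM and tested with the quasi-likelihood test in 1 fit of 4 group means; p-values were adjusted by Benjamini-Hochberg over 14901 genes, threshold 0.05. The study's Sleuth test needs resampled estimates, which were not used here. Estimated counts spread reads over transcripts and near-identical copies by likelihood, so isoform and paralog splits are estimates. Alternatives were DESeq2 1.42.0, limma-voom 3.58.1, DESeq2 size factors, no filter, mitochondrially encoded genes left out, protein-coding transcripts only, subsets of libraries by animal number and those given further on. The edgeR, DESeq2 and limma-voom tests were run on simulated data for KO/PEG versus WT/PEG and KO/NTZ versus KO/PEG only. The simulated libraries were independent and had no length slope, so these features of the data were not checked. Lists gave counts, the 36 members were all named, and at most the 3 genes of smallest p among those passing were named from any other list. The members and lists were chosen with earlier results of these data known. Promoter windows came from RefSeq (GRCm38.p6).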

Additional observations from a re-analysis of the deposited data

Results flagged for a closer look

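The NTZ effect on Fabp5 differed between genotypes, at −1.40 on the log2 scale (KO effect minus WT effect, edgeR adjusted p = 0.0168), as described with its squamous marker values. Within the 9 WT/NTZ libraries, 5 of 37 groups of values tested held a library that stood apart by Dixon's criterion at 95%. Chance gives about 1 in 20 for a single group. The 37 groups share the same 9 libraries and are not independent, so their count cannot be set against that rate. Fabp4 was 250.7 CPM in WT_117_WT_YF, above all others of the group, and Cpt2 was 84.7 CPM in the same library, with the next at 71.6 CPM. Hadh was 155.2 CPM in WT_118_WT_YF, with the next at 186.7 CPM, and Acaa2 was 121.4 CPM there, with the next at 170.8 CPM. Slc27a1 was 27.1 CPM in WT_93_WT_YF, with the next at 21.5 CPM. WT_117_WT_YF and WT_118_WT_YF are those with the most adipocyte and squamous markers and with the fewest parietal markers of their group; whether these bear on the values was not tested.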

How the results depend on the processing

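Over 895 re-computed values of single members, 823 kept direction and call, 32 lost the call, 16 gained it and 24 changed sign, 20 of these with the transcript length slope as a covariate, an alternative chosen, like the fit of single transcripts, after seeing the data. In KO/PEG against WT/PEG the slope moved members higher from 12 to 1 and all genes passing from 11125 to 4881; Fabp5 came to −0.07, Acsl1 0.19, Cpt2 −0.25, Acads −0.48, Hadh −0.55, Ech1 −0.47, Decr1 −0.29, Etfb −0.84, Acaa1a −0.02 and Acot1 −0.02. In KO/NTZ against WT/NTZ it moved members higher from 8 to 1 and all genes from 10791 to 3144; Cpt1b came to −0.80, Cpt2 −0.15, Acadvl −0.60, Acads −0.32, Hadh −0.34, Ech1 −0.40, Decr1 −0.09, Etfb −0.47, Acot1 −0.47 and Acot2 0.11. Also there, Acadvl, at 0.02, came to −0.01 without the libraries of animal KO_110, −0.28 with protein-coding transcripts only and −0.00 without the 4 libraries that stood apart (chosen after seeing the data), and Fabp4 to 0.09 without those 4. In KO/NTZ against KO/PEG, 1 member was lower with DESeq2, without the 4 libraries and with the slope, and 1 was higher with only KO animals numbered below 100; the genes passing, 5.56% of those tested, went to 1249 with DESeq2, 267 with only the groups compared, 1402 with KO animals below 100 and 1691 with the slope. In WT/NTZ against WT/PEG, 1 member was higher with DESeq2, and the 154 genes became 0 with limma-voom or only the groups compared, 5 without the 4 libraries and 72 with the slope. For the difference of NTZ effects, 0 members were lower with limma-voom or without the 4 libraries, 2 were higher with the slope, and the genes passing, 0.96% of those tested, became 274 with DESeq2, 22 with limma-voom, 58 without the 4 libraries and 1461 with the slope. The causes were not tested. No paired analysis was possible because the groups compared share fewer than 2 animal numbers. Animal numbers were also unequal between the groups. Numbered below 100 were 6 KO/PEG and 10 KO/NTZ libraries, and at 100 or above 7 and 1. All 11 WT/PEG libraries were numbered 100 or above. The labels do not say what the numbers stand for, and in the KO groups treatment and number are largely confounded. Few reads limit Slc27a2, Cpt1b, Acot1, Acot2 and Ppara.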
